A study of Mus musculus with 7 samples.

Results

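Measured here were 10 long noncoding RNAs of the mouse brain, Meg3, Rian, Mirg, Snhg14, Kcnq1ot1, Peg13, Malat1, Neat1, Miat and Snhg11, among 46333 genes counted. They were chosen because the long noncoding RNAs called between the genotypes were nearly all lower in cre+ libraries, so their own values in that comparison are given as a description, with no test. Of the 10, 9 were among the 21542 genes with enough counts to be fitted, and Peg13 was not. All mice carried floxed il4ra alleles (il4ra fl/fl), which encode the alpha chain of the interleukin-4 receptor, and 3 libraries came from mice that also carried Syn cre (cre+), a Cre recombinase driven by the neuronal synapsin promoter, which removes exons 7 to 9. The 4 libraries of the other genotype came from littermates without Cre (cre-). The mice were adult females, 10 to 15 wk old by the methods and 12 to 16 wk old by the description of the sequencing. Whole brains were dissociated, non-neuronal cells were depleted with magnetic beads, and polyadenylated RNA was sequenced, giving 68213223 to 94376841 counts per library.

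Long noncoding RNAs are transcripts that are not translated into protein, and many stay in the nucleus. Some are imprinted, meaning that only the copy inherited from the mother or only the copy from the father is read, and in such domains a long noncoding RNA often keeps neighbouring genes silent in cis or carries small RNAs in its introns. Others are abundant parts of nuclear bodies, such as the speckles and paraspeckles in which splicing factors and RNA-binding proteins gather. Neurons are known for high levels of several of them.

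Meg3, Rian and Mirg are read from the maternal chromosome in the Dlk1-Dio3 domain, and they carry the annotated microRNA genes of this list. The gene models of Meg3, Rian and Mirg held 2, 3 and 14 microRNA genes, which give 35 mature arms with 34 different seeds (bases 2 to 8). The only seed shared by a pair of arms was that of miR-453 and miR-496a-5p, both inside Mirg. Mature sequences from RefSeq are printed for this pair and for an arm from each host, 5′ to 3′, with the seed in capitals, to show what the hosts encode.
miR-453: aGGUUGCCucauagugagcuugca
miR-496a-5p: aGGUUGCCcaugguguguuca
miR-134-5p: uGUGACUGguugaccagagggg
miR-370-3p: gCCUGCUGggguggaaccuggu
miR-770-5p: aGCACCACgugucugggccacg
The first 3 lie in Mirg, miR-370-3p lies in Rian and miR-770-5p in Meg3. These libraries of polyadenylated RNA did not measure mature microRNAs or small nucleolar RNAs. The small RNA genes inside Meg3, Rian and Mirg held 34, 365 and 611 counts over the 7 libraries. Their hosts held 890844, 122431 and 6858 counts. The 34 counts inside Meg3 came from Mir1906-1, at 2 in every library, and Mir770, at 2 or 3. Mir410, inside Mirg, stood at 3 in every library. Such constant values do not follow depth or host level, and their cause was not tested.

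Promoter windows from RefSeq (300 bases each, most of them upstream of a start site, GRCm38.p6) were found for 8 of the 10 genes, all but Neat1 and Peg13, with a second start site for Meg3. Each window matched the GRCm39 genome once, and its GRCm39 position is given. Printed here are the 3 of the 9 windows that held TGACGT, the core of the cAMP response element, together with the window of Miat, which had the highest CpG content. TGACGT and TATAAA are in capitals on either strand. The Meg3 window holds the full palindrome TGACGTCA and TATAAA.
Meg3, chr12:109506629-109506928 plus strand: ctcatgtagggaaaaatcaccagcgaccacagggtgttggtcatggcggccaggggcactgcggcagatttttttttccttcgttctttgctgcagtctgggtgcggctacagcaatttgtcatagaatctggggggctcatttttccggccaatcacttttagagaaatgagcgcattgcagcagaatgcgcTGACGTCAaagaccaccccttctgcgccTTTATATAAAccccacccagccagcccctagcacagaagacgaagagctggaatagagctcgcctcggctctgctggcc
Malat1, chr19:5852651-5852950 minus strand: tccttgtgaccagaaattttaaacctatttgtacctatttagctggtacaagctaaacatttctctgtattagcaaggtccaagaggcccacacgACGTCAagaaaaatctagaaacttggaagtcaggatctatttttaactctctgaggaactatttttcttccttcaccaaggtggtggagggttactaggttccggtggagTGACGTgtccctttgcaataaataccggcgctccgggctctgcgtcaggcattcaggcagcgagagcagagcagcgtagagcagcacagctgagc
Kcnq1ot1, chr7:142850235-142850534 minus strand: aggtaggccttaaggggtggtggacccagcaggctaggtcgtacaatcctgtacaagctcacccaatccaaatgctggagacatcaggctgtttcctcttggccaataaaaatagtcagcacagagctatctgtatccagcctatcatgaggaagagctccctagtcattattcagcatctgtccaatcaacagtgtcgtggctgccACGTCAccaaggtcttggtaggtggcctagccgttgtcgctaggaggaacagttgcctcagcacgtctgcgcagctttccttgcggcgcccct
Miat, chr5:112376765-112377064 minus strand: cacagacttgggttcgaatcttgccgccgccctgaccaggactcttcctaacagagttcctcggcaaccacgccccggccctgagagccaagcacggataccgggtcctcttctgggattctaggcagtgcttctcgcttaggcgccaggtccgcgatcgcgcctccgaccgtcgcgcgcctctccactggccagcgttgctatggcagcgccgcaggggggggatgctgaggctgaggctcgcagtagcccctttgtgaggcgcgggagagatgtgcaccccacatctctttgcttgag
TGACGT occurs on either strand in 7.51% of 32841 windows of the same length, and TGACGTCA, which contains it, in 1.79%. The CpG observed-to-expected ratio was 0.81 for Miat, 0.78 for Snhg11, 0.60 for both the first Meg3 window and the Malat1 window, and 0 for Rian, beside a median of 0.38 over all windows. A match to these letters is a description of the window and no evidence of binding. The RefSeq window of Snhg14 has its start site at position -474418 relative to the gene start in the files. The start sites of the Mirg window, the second Meg3 window and the Miat window lie at positions 5217, 4397 and 447 inside the gene. None of these windows stands for the counted start.

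Il4ra itself, whose count covers the whole gene and not the floxed exons alone, was at 29.5, 28.7 and 24.4 CPM (read counts scaled to the size of each library) in cre+ and at 20.03, 23.2, 29.6 and 22.4 CPM in cre- libraries. The genotypes overlapped, and the log2 fold change was 0.21 ± 0.15 (SE; edgeR quasi-likelihood test, adjusted p = 0.487), so the gene count does not check the genotype labels. The labelled cell type was checked with marker genes. All 15 neuron markers were detected, with sums of 1507 to 2588 CPM in cre+ and 2527 to 3568 CPM in cre-. The sums of 12 endothelial markers were higher, 12870 to 19048 CPM in cre+ and 8155 to 11634 CPM in cre-. So were those of 8 ependymal and choroid plexus markers, at 6490 to 19763 CPM and 4003 to 9362 CPM. These sums cover different genes and are not scaled to gene length, so they do not give the share of a cell type. By flow cytometry, the study reported that its isolates were mostly neurons. No gene of 21542 passed an adjusted p of 0.05 in edgeR, a share of 0%, and 4305 had an unadjusted p under 0.05. DESeq2 called 1095 genes higher and 895 genes lower in cre+ (6.7% and 5.48% of 16345). These counts were 591 and 512 without cre+ 1, 407 and 348 without cre- 2, and 545 and 374 without cre- 3, and 645 genes were called higher without cre+ 2. The 9 fitted long noncoding RNAs all had a negative log2 fold change (cre+ over cre-), as did 54.0% of all fitted genes. In 5 of these 9 all cre+ libraries lay below all cre- libraries, beside 9.72% of genes. In none did all cre+ libraries lie above all cre- libraries, as they did in 8.94% of genes. Their median log2 fold change was -1.01, and that of all fitted genes was -0.04. In bulk libraries, fewer cells of a type and less RNA per cell cannot be told apart.

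**Figure D1:**
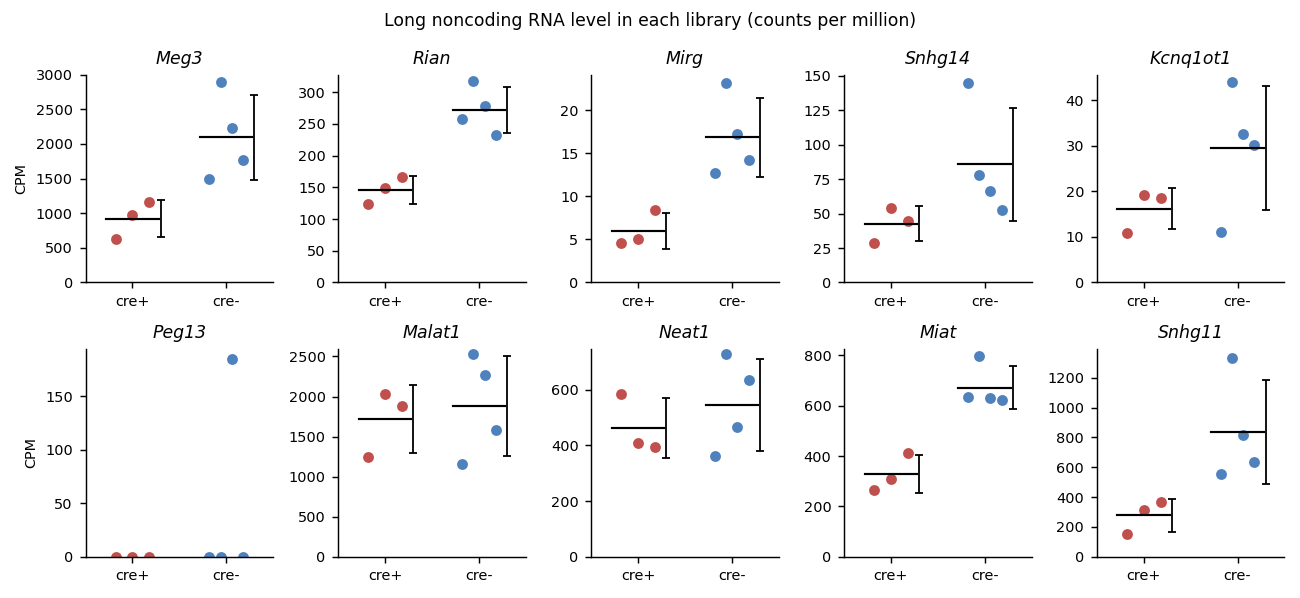
Level of each of the 10 long noncoding RNAs in CPM on linear axes that start at 0, with a point for each library (3 cre+, 4 cre-), and for all but Peg13 a line at the mean and a bar for 1 SD. Meg3, Rian, Mirg, Miat and Snhg11 do not overlap between the genotypes, and Peg13 has counts in a single cre- library.

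In the Dlk1-Dio3 domain, Meg3, a maternally expressed RNA that is abundant in neurons, had 628, 975 and 1160.4 CPM in cre+ and 1492, 2889, 2233 and 1765 CPM in cre- libraries. The genotypes did not overlap, with means of 921 ± 270.0 (SD, n = 3) and 2095 ± 612 CPM (n = 4) and a log2 fold change of -1.19 ± 0.28 (SE). Rian, which carries small nucleolar RNAs, had 123, 149 and 166 CPM in cre+ and 258, 318, 278 and 232 CPM in cre- libraries. Its groups lay apart as well, and at -0.90 ± 0.15 its log2 fold change had the smallest standard error of the 9. Mirg, the host of the microRNA cluster at the far end of the domain, had 4.56, 5.02 and 8.38 CPM in cre+ and 12.8, 23.2, 17.2 and 14.2 CPM in cre- libraries, a log2 fold change of -1.49 ± 0.29. The 3 RNAs lie within 209011 bases of chromosome 12 on the plus strand (Meg3 at chr12:109506884-109538160, Rian at chr12:109570242-109628150 and Mirg at chr12:109696198-109715894, GRCm39).

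The ratios between these RNAs within a library were also compared. How often ratios of other gene pairs lie apart between the genotypes was not counted, so the ratios are descriptions only. Mirg counts amounted to 0.72%, 0.51% and 0.72% of Meg3 counts in cre+ and to 0.86%, 0.80%, 0.77% and 0.81% in cre- libraries, which did not overlap. Rian counts were 19.6%, 15.3% and 14.3% of Meg3 counts in cre+ and 17.3%, 11.01%, 12.5% and 13.2% in cre- libraries, which overlapped. Rtl1, a paternally expressed retrotransposon-derived gene that lies between Meg3 and Rian, had 62.6, 89.7 and 112 CPM in cre+ and 173, 336, 241 and 187 CPM in cre- libraries. All cre+ values of Rtl1 lay below all cre- values (log2 fold change -1.41 ± 0.28, adjusted p = 0.0939 in edgeR and 7.72e-05 in DESeq2). A maternal transcript runs antisense to Rtl1, and reads of the 2 strands cannot be told apart in counts made without strand. Begain, a protein of the postsynaptic density, was lower too (-0.87 ± 0.19, adjusted p = 0.0939 in edgeR and 0.0018 in DESeq2). Dlk1, a paternally expressed Notch-family ligand, was not called by either tool (-0.74 ± 0.30, adjusted p = 0.214 and 0.0996). Of the 5 fitted neighbours in this domain, DESeq2 called 2 lower and none higher, and their median log2 fold change was -0.87.

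In the Prader-Willi/Angelman domain, Snhg14 is the long paternal transcript that hosts the Snord115 and Snord116 small nucleolar RNAs and runs antisense into Ube3a, the ubiquitin ligase gene that it silences on the paternal chromosome of neurons. Snhg14 had 29.0, 53.9 and 44.9 CPM in cre+ and 145, 78.2, 66.6 and 52.9 CPM in cre- libraries. The highest cre+ library lay just above the lowest cre- library, and the log2 fold change was -1.01 ± 0.36. Without cre- 1, the highest library, it was -0.63. The gene spans 667836 bases (chr7:58957672-59625507, minus strand), and its annotated span held 204 small nucleolar RNA genes with 47 counts in all, beside 38310 counts of Snhg14. Such counts do not measure the level of the mature small nucleolar RNAs.

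Ube3a had 99.2, 121 and 103 CPM in cre+ and 113, 117, 104 and 107 CPM in cre- libraries. The log2 fold change of Ube3a was -0.03 ± 0.10 (adjusted p = 0.893 in edgeR and 0.911 in DESeq2). Counts of Snhg14 were 29.3%, 44.7% and 43.6% of those of Ube3a in cre+ and 129%, 66.9%, 64.0% and 49.6% in cre- libraries. This ratio did not overlap although Snhg14 itself did, and the share of other gene pairs that lie apart was not counted. Their 3′ ends overlap on opposite strands, so reads there could count for either. Among the 11 fitted neighbours, 10 had a negative log2 fold change, DESeq2 called 3 lower and none higher, and the median was -0.41. Those called included the GABA-A receptor subunit genes Gabra5 (-1.16 ± 0.32) and Gabrg3 (-1.01 ± 0.30), with DESeq2 adjusted p of 0.0101 and 0.0173 and edgeR adjusted p of 0.117 and 0.134.

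In the Kcnq1 domain, Kcnq1ot1 starts inside the potassium channel gene Kcnq1 on the opposite strand and silences genes around it on the paternal chromosome. It had 10.9, 19.1 and 18.6 CPM in cre+ and 11.2, 44.0, 32.7 and 30.2 CPM in cre- libraries. The groups overlapped through cre- 1, which lay among the cre+ libraries, and the log2 fold change was -0.86 ± 0.41. Without cre- 1 it was -1.13. Of 10 fitted neighbours of Kcnq1ot1, 9 had a positive log2 fold change, with a median of 0.41. DESeq2 called 1 of them, the tetraspanin gene Cd81, higher (log2 fold change 0.46 ± 0.12, adjusted p = 0.00999, and 0.107 in edgeR). Cdkn1c, a cell cycle inhibitor that Kcnq1ot1 silences, was at 0.59 ± 0.20 (adjusted p = 0.163 in edgeR and 0.0601 in DESeq2). Kcnq1 was at 0.72 ± 0.32 (adjusted p = 0.257 in edgeR and 0.138 in DESeq2). It had 2064, 782 and 758 counts in cre+ and 714, 564, 667 and 935 counts in cre- libraries. Of the cre+ libraries, only cre+ 1 lay outside the cre- range. Kcnq1ot1 counts were 46.9%, 181% and 182% of Kcnq1 counts in cre+ and 138%, 657%, 352% and 260% in cre- libraries, which overlapped, and the pair shares positions on opposite strands.

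Peg13, a paternally expressed RNA read from within an intron of Trappc9 on the same strand (chr15:72677449-72682173), had 13293 counts (185 CPM) in cre- 3 and 0 counts in each of the other 6 libraries. A count of 0 here allows up to 3 counts per library, as counting error only. A row without an Ensembl identifier, LOC118568202, which was chosen after its values were seen, showed the reverse, with 206 counts in cre- 3 and 14542 to 20139 counts in the others. The sum of both rows was 15808, 14557 and 15494 counts in cre+ and 20139, 14542, 13499 and 14572 counts in cre- libraries, and these sums overlapped between the genotypes. Gm20716, also named after its values were seen, was likewise low in cre- 3, with 0 counts there and 1695 to 7624 counts in the others. Whether the Peg13 and LOC118568202 rows stand for the same transcript was not tested, and no position is given for LOC118568202 in the files. Trappc9 itself, a trafficking complex gene, had 3981 counts in cre- 3 and 4146 to 5537 in the others. Peg13 and the antibody heavy chain gene Igha, named here after the values were seen, were the only rows of the files with at least 1000 counts in 1 library and 0 in all others. Of the 4 fitted genes of this domain, DESeq2 called 1, the maternally expressed potassium channel gene Kcnk9, lower (log2 fold change -1.38 ± 0.31, adjusted p = 0.00102, and 0.0963 in edgeR).

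**Figure D2:**
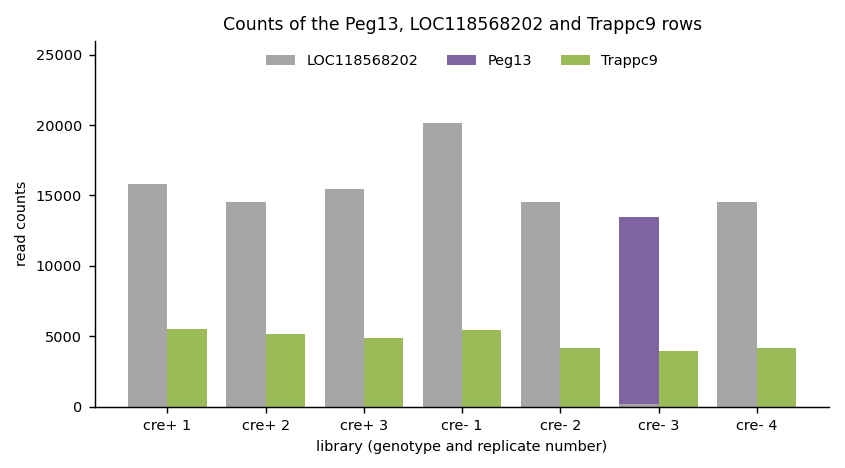
Read counts (linear axis from 0) of the Peg13 and LOC118568202 rows, stacked, and of Trappc9 beside them, for each of the 7 libraries. Counts of Peg13 occur in cre- 3 alone, where those of LOC118568202 fall to 206.

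Among the RNAs of nuclear bodies, Malat1, which concentrates in nuclear speckles, had 1242 CPM, 2030.5 CPM and 1885 CPM in cre+ and 1159, 2527, 2266 and 1576 CPM in cre- libraries. All cre+ values lay within the range of the cre- values. The log2 fold change was -0.13 ± 0.29, and it turned positive without cre+ 1 (0.054) or without cre- 2 (0.043). Neat1, the RNA scaffold of paraspeckles, had 586, 410.3 and 393 CPM in cre+ and 361, 729, 465 and 634 CPM in cre- libraries. Its groups overlapped too, at -0.24 ± 0.25. Both are neighbours on chromosome 19 (Malat1 at chr19:5845718-5852700, Neat1 at chr19:5874736-5895506, minus strand), and the ratio between them varied. Neat1 counts were 47.2%, 20.2% and 20.8% of Malat1 counts in cre+ and 31.1%, 28.8%, 20.5% and 40.2% in cre- libraries. Malat1 and the long form of Neat1 end in a triple helix and not in a poly(A) tail, and how the poly(A) selection of these libraries acted on them was not tested.

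Miat, also called Gomafu, forms nuclear dots of its own in neurons and binds the splicing factors Sf1, Qk and Celf3. It had 264, 310.0 and 411 CPM in cre+ and 634, 798, 631 and 621 CPM in cre- libraries. All cre+ libraries lay below all cre- libraries, with means of 328 ± 75.3 (SD, n = 3) and 671 ± 85.0 CPM (n = 4) and a log2 fold change of -1.03 ± 0.18. Of the 3 splicing factors, DESeq2 called Celf3, which is specific to neurons, lower (-0.77 ± 0.16, adjusted p = 0.00142) and Qk, which is abundant in glia, higher (0.43 ± 0.09, adjusted p = 6.64e-05). Sf1 was at 0.03 ± 0.10 (DESeq2 adjusted p = 0.852), and edgeR gave adjusted p of 0.0939, 0.0939 and 0.911 for Celf3, Qk and Sf1.

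Snhg11, a host of a small nucleolar RNA that is known mostly from neurons, had 153, 312 and 368 CPM in cre+ and 558, 1335, 816 and 637 CPM in cre- libraries. The groups lay apart, with means of 278 ± 112 (SD, n = 3) and 837 ± 349 CPM (n = 4), a log2 fold change of -1.59 ± 0.38. The small nucleolar RNA gene inside it held 136 counts over the 7 libraries, beside 335354 of Snhg11, which does not measure the mature small nucleolar RNA.

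Genes that flank the RNAs outside imprinted domains were fitted in the same model. Around Malat1 and Neat1, DESeq2 called Ehbp1l1 higher (0.41 ± 0.10, adjusted p = 0.0113) and Tigd3 lower (-0.55 ± 0.21, adjusted p = 0.0497) of 8 fitted genes. Around Miat, it called Tpst2 higher (0.51 ± 0.15, adjusted p = 0.0365) and Asphd2 lower (-0.72 ± 0.20, adjusted p = 0.0153) of 7. Around Snhg11 none of 6 was called, and Slc32a1, the vesicular GABA transporter gene, had the smallest p (-0.46 ± 0.21, DESeq2 adjusted p = 0.163). None of these 21 genes passed in edgeR, where 2 lower and 2 higher had an unadjusted p under 0.05. Their median log2 fold change was 0.064, beside -0.04 over all genes, and it turned to -0.067 with library totals as the scaling.

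The levels of these RNAs were ordered by CPM per kilobase of merged exons, since levels of different genes are compared only per length. How poly(A) selection acted on Malat1 and the long form of Neat1 was not tested, so their places in the order are uncertain. The annotation release behind the counts is not stated. Malat1 spans 6983 bases by the deposited positions and 7886 merged exon bases in the reference used here. In cre- libraries Malat1 had a mean of 239, Meg3 108, Snhg11 98.1, Miat 63.7, Neat1 24.4, Rian 8.49, Snhg14 3.003, Mirg 1.75 and Kcnq1ot1 0.31 CPM per kb. Over the 4 cre- libraries, Malat1 and Meg3, Meg3 and Snhg11, Snhg11 and Miat, and Snhg14 and Mirg overlapped in their ranges, and the other neighbours in this order did not. With the longest transcript as the length, Rian (33.6 CPM per kb) moved above Neat1 (24.4 CPM per kb), since the merged exons of Rian span 31981 bases and its longest transcript 8080. In cre+ libraries the order was Malat1 at 218, Meg3 at 47.7, Snhg11 at 32.5, Miat at 31.2 and Neat1 at 20.7 CPM per kb, followed by Rian at 4.57, Snhg14 at 1.49, Mirg at 0.62 and Kcnq1ot1 at 0.17 CPM per kb. Malat1 and Meg3 ranked 21 and 26 among all fitted genes by mean CPM. The 9 RNAs together took 0.29% to 0.42% of the counts of a cre+ library and 0.45% to 0.94% of a cre- library.

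**Figure D3:**
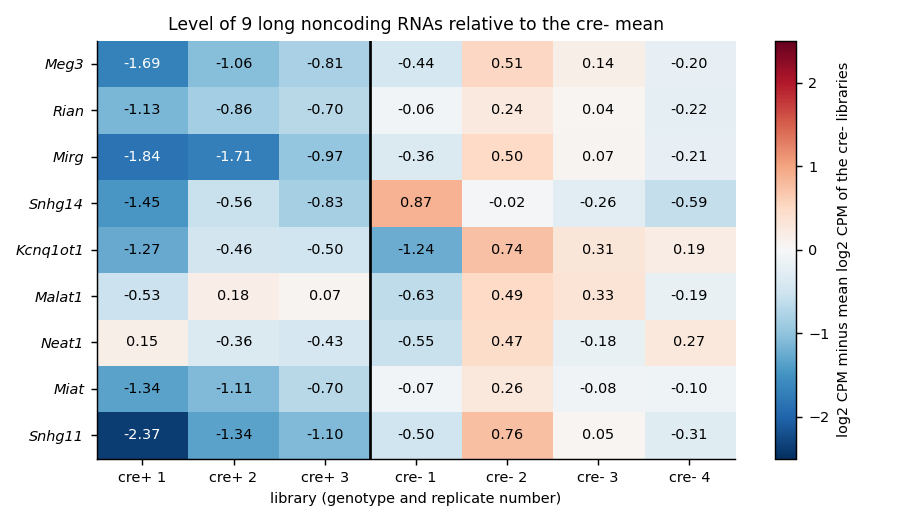
Heat map of log2 CPM minus the mean log2 CPM of the cre- libraries for 9 long noncoding RNAs (rows) in 7 libraries (columns), with each value printed and the genotypes split by the black line. The library cre+ 1 holds the lowest value of 7 of the 9 RNAs, and cre- 2 holds the highest of 8.

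The 9 RNAs also varied within a genotype. Over the 4 cre- libraries the coefficient of variation of their CPM ran from 12.7% for Miat to 47.8% for Snhg14, with a median of 30.2%, beside a median of 11.9% over 11294 genes with a mean of at least 10 CPM. Likeness between members was measured as the root mean square difference of centred log2 CPM. In the cre- libraries, which the choice of the list by genotype did not compare, Meg3 and Mirg were closest at 0.05, followed by Rian and Miat at 0.08 and by Meg3 and Malat1 at 0.14. Snhg14 and Kcnq1ot1 were farthest apart at 1.22, with cre- 1 highest for Snhg14 and lowest for Kcnq1ot1. The median over the 36 pairs was 0.35. Over all 7 libraries, with the genotype difference included, Rian and Miat were closest at 0.12, although they lie on different chromosomes. The median was then 0.55. These are descriptions over few libraries that share depth and preparation.

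Of 11051 protein-coding genes with a mean of at least 10 CPM, those most like Meg3 over the 7 libraries were Inha (root mean square difference 0.10), Kcnt1 (0.12) and Rtl1 (0.12), beside a median of 0.74. Inha encodes the inhibin alpha subunit and Kcnt1 a sodium-activated potassium channel. Likeness over 7 libraries includes the genotype difference that the list was chosen on. The log2 fold changes of Inha, Kcnt1 and Rtl1 were -1.35, -1.12 and -1.41, and likeness within cre- libraries was not computed for these genes. The genes most like Malat1 were Cfap74 at 0.18, and Dclre1c and Zfp691 at 0.20 each, beside a median of 0.47. Those most like Neat1 were Aopep at 0.08, and Prickle3 and Eno3 at 0.10 each, beside a median of 0.43.

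Markers of cell types differed between the genotypes along with these RNAs. All 15 neuron markers had a negative log2 fold change (median -0.53), and DESeq2 called 4 lower, such as Nefh (-0.87 ± 0.16, adjusted p = 0.000222) and Elavl3 (-0.56 ± 0.17, adjusted p = 0.0334). DESeq2 called higher 10 of 12 endothelial markers, 6 of 10 mural, 4 of 10 astrocyte, 3 of 10 oligodendrocyte, 2 of 6 meningeal fibroblast and 1 of 8 ependymal and choroid plexus markers, and none of 6 oligodendrocyte precursor or 9 microglia markers. The sums ran from 614 to 870.0 CPM in cre+ and 409 to 589 CPM in cre- for mural markers, and from 1589 to 1778 CPM and 921 to 1233 CPM for astrocyte markers. Oligodendrocyte markers summed to 1016 to 2364 CPM in cre+ and 871 to 1604 CPM in cre-, and microglia markers to 728 to 1137 CPM and 183 to 1700 CPM. No marker was at 0 in all libraries. Of 13 mitochondrially encoded mRNAs, 7 were called higher by DESeq2 (median log2 fold change 0.70). The part of these markers in the values of the long noncoding RNAs was not tested, apart from the neuron reference given next.

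Each RNA was next expressed relative to the mean log2 CPM of the 15 neuron markers in the same library. That mean was 5.97, 6.71 and 6.88 in cre+ and 7.49, 7.04, 7.21 and 6.87 in cre- libraries, a difference of -0.64. The scale adds 0.64 to the difference of every gene alike, so any gene with a difference between -0.64 and 0 turns positive by construction. These are differences of mean log2 CPM. The fold changes above come from the edgeR fit, so the shift between both measures is not exactly 0.64. On this scale none of the 9 RNAs separated the genotypes with all libraries, and the median difference was -0.31. Without cre- 1, an omission chosen after seeing the data, 5 of the 9 did (Meg3, Mirg, Kcnq1ot1, Miat and Snhg11), without cre+ 1 Rian and Miat did, and without cre+ 3 Snhg11 did. Fewer libraries separate the genotypes more easily. The share of all fitted genes that lie apart on this scale was not counted, so these numbers are no result about the RNAs. The difference was -0.97 for Snhg11, -0.87 for Mirg, -0.55 for Meg3, -0.41 for Miat, -0.31 for Snhg14, -0.26 for Rian and -0.11 for Kcnq1ot1, and it turned positive for Malat1 at 0.54 and for Neat1 at 0.42. The library with the highest neuron mean, cre- 1, had the lowest cre- level of Meg3, Mirg, Kcnq1ot1, Malat1, Neat1 and Snhg11 in CPM. It also had the highest level of Snhg14, at 145 CPM. The library with the lowest neuron mean, cre+ 1, held the lowest CPM of 7 of the 9 RNAs. How these levels follow the neuron markers was not tested.

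**Figure D4:**
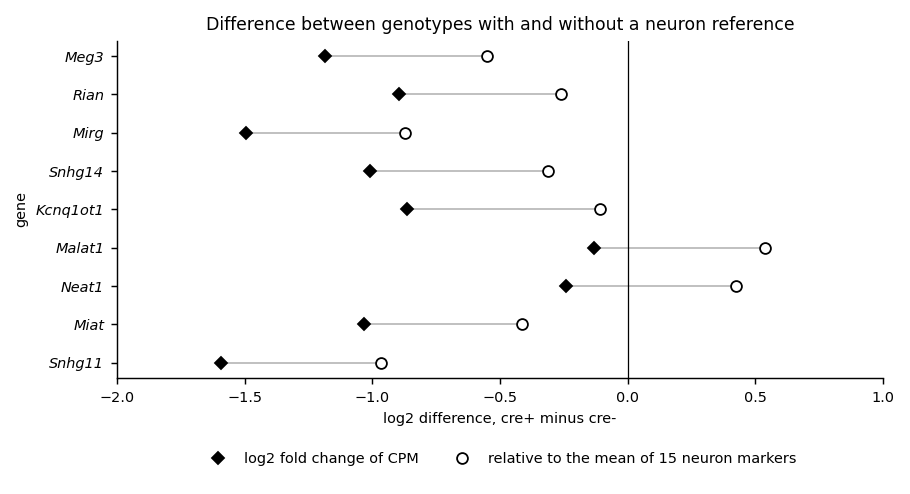
Difference between cre+ and cre- in log2 units for the 9 fitted RNAs. Black diamonds give the log2 fold change of the edgeR fit. Open circles give the difference of mean log2 CPM relative to the mean of 15 neuron markers in the same library. All open circles lie to the right of their diamonds, and those of Malat1 and Neat1 lie above 0.

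The other genes of these pathways were described from lists of named genes. Of 29 other named long noncoding RNAs, DESeq2 called 4 lower and none higher, with a median log2 fold change of -0.26. The 4 were Mir124a-1hg, the host of miR-124, a microRNA of neurons (-1.50 ± 0.25, adjusted p = 3.09e-06), Mir9-3hg, the host of another neural microRNA (-0.80 ± 0.17, adjusted p = 0.00252), Snhg17 (-0.59 ± 0.13, adjusted p = 0.000692) and Ftx, from the X-inactivation centre (-1.02 ± 0.29, adjusted p = 0.0146). Snhg20 (-0.65 ± 0.23) and Dlx6os1 (-0.49 ± 0.17), which is read from a locus of inhibitory neurons, were not called. Of all 1694 other annotated long noncoding RNAs fitted, DESeq2 called 60 lower and 3 higher, with a median of -0.36, and of 15920 protein-coding genes 763 lower and 1063 higher, with a median of 0.01. These class counts are what the list was chosen on and support nothing further.

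Of 26 fitted imprinted genes outside the domains above, DESeq2 called none lower and 3 higher, with a median of -0.16. The 3 were Grb10, an adaptor that restrains growth factor receptors (0.37 ± 0.08, adjusted p = 0.00148), Plagl1, a zinc finger factor (0.65 ± 0.18, adjusted p = 0.0201), and Igf2, a growth factor (0.97 ± 0.33, adjusted p = 0.033). Peg3 (-0.40 ± 0.16), Nnat (-0.47 ± 0.19) and Rasgrf1 (-0.89 ± 0.43) were not called. Of 14 genes that maintain imprints or silence chromatin, 1 was called lower, Zfp57, the zinc finger protein that keeps methylation at imprinted regions (120 ± 8.90 against 171 ± 15.1 CPM, log2 fold change -0.52 ± 0.11, adjusted p = 0.00105). Zfp445 (-0.38 ± 0.13), Smchd1 (0.21 ± 0.08) and the Polycomb genes Ezh2 (-0.30 ± 0.10), Suz12 (0.15 ± 0.09) and Ezh1 (0.20 ± 0.13) were not called. Of the 16 paraspeckle and speckle proteins other than the partners of Miat, none was called. Those of the smallest p were Tardbp (-0.32 ± 0.15), Sfpq (-0.32 ± 0.14) and Rbm14 (0.18 ± 0.11) in paraspeckles, and Srrm2 (-0.42 ± 0.18), Srsf1 (-0.27 ± 0.12) and Srsf7 (-0.21 ± 0.11) in speckles. No gene of these lists passed in edgeR, and the adjusted p here are those of DESeq2.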

How the data were processed

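Polyadenylated RNA of neurons enriched from brain was measured in 3 cre+ and 4 cre- libraries. The authors trimmed reads with fastp, aligned them with STAR to GRCm39, cleaned alignments with SAMtools and counted genes with StringTie, and they deposited raw counts per gene. No source used here names tool versions, the annotation release or the strand setting. A normalised signal was also deposited: each count divided by a size factor of 0.916 to 1.11 per library, used here only to check that. Of 46382 rows, 49 repeats of a symbol with identical counts were dropped. Genes passing filterByExpr were fitted with edgeR 4.0.16 (TMM, robust quasi-likelihood F-test, Benjamini-Hochberg adjustment), and DESeq2 1.42.0 was the main alternative. CPM used TMM library sizes, and log2 CPM a prior count of 2. Exon lengths came from GENCODE vM39. Both fits were also run on counts simulated with the dispersions of the edgeR fit and no difference in cell composition. DESeq2 called more unchanged genes there than edgeR did. This does not show how many of its calls in the measured libraries are false. The members and gene lists were chosen with earlier results of these data known. Named neighbours were the up to 3 genes of a role (6 of a list with a single role) with the smallest p in edgeR. Alternatives were other scalings and filters, a replicate block, a neuron marker reference and leaving out each library. The study states 3 to 4 mice per genotype for the sequencing, but the labels tie no library to a mouse, so p-values measure the spread between these libraries. No fold change column of the authors was used, and some genes are not reported here.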

Additional observations from a re-analysis of the deposited data

Results flagged for a closer look

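A sample was compared with the rest of its group of 4 cre- libraries for each of the 10 RNAs, and a library stood apart where its gap to the nearest exceeded Dixon's critical value for the group's range, which chance gives in about 1 of 20 groups. In 2 of the 10 a library did so. Peg13 was at 185 CPM in cre- 3 and at 0 in the other cre- libraries. Miat was at 798 CPM in cre- 2, above 634, 631 and 621 CPM in the other cre- libraries.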

How the results depend on the processing

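The direction of 7 of the 9 fitted RNAs held in all 15 alternatives, with log2 fold changes from -1.85 (Snhg11) to -0.11 (Kcnq1ot1). Relative to neuron markers the median of the 9 moved from -1.01 to -0.31, and Malat1 (0.54) and Neat1 (0.42) reversed. This scale adds 0.64 to the difference of mean log2 CPM of every gene, a measure that also differs from the fitted fold change. Leaving out 1 library at a time, the log2 fold change of Malat1 ran from -0.30 to 0.054 and turned positive without cre+ 1 or cre- 2, and the median of the 9 from -1.07 to -0.80. DESeq2 called 1990 genes where edgeR called 0, and edgeR called 0 to 5 with a library left out (5 without cre+ 1). Alternatives chosen after seeing the data were the same omissions in DESeq2, which called 407 to 1163 genes higher and 348 to 1318 lower. The lowest counts came without cre- 2, and the cause was not tested. Of the list medians, that of imprinted domain neighbours ran from -0.17 to 0.028 with a library left out, that of neighbours of non-imprinted RNAs from -0.083 to 0.065 (and was -0.067 with library totals), and that of oligodendrocyte precursor markers from -0.17 to 0.67. Library totals moved the median of all genes to -0.16 and that of imprint maintenance genes from -0.14 to -0.26. Deviations of same-numbered libraries correlated at -0.027, -0.0036 and 0.088, which gave no sign of pairing. Libraries of different numbers were not compared in this way, so pairing was not excluded. With the replicate block edgeR called 0 genes, the median of the 9 RNAs was -1.08, and DESeq2 called 765 genes higher and 778 lower. PCR copies were not separated by molecular identifiers, so counting limits cover counting error only.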
